A study of Mus musculus with 2 samples.

Results

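Inhibitory checkpoint receptors and genes tied to them were described in Th17 cells that lacked the long non-coding RNA lncRNA-GM. The set holds 10 genes, Pdcd1, Lag3, Havcr2, Tigit, Ctla4, Btla, Cd160, Cd200, Cd274 and Tox, chosen by symbol, and all 10 were found among the 17002 genes of the table. The data comprised 2 libraries of C57BL/6 mouse cells, 1 wild type and 1 lncRNA-GM-/-. In each, naive CD4+ T cells from spleen were held under Th17-polarising conditions for 3 days before total RNA was sequenced. How many mice or cultures each library came from, and how the knockout allele was made, are not given in the sources used here. Since lncRNA-GM RNA was not analysed here, its loss in the knockout library was not checked. With 1 library per genotype there was no replicate spread and no test, so every difference is between these 2 libraries. In bulk RNA, fewer cells that make a transcript and less transcript per cell cannot be told apart.

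Checkpoint receptors are surface proteins that restrain a T cell after it has been activated. Most engage ligands on antigen-presenting or tissue cells and either recruit phosphatases that dampen T cell receptor signalling or compete with an activating receptor for a shared ligand. In Th17 cells several of them are induced by activation itself, and sustained expression together with the transcription factor TOX is known from exhausted T cells. Cd274 (PD-L1) and Cd200 encode ligands rather than receptors, although T cells can display both.

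Levels were read as FPKM, which divide the fragments of a gene by its length and by the depth of the library, so they can be compared between genes. Log2 ratios set the knockout over the wild type after adding 1 to each FPKM value. A gene was counted as measured at 1 FPKM or more in at least 1 library, which held for 10998 genes. A gene was called lower or higher in the knockout at a difference of 1.5-fold or more. Intervals are 95% exact (Clopper-Pearson) counting intervals on the ratio of reads recovered from the authors' deposited p-values. They cover counting error only and carry no pseudocount, so the interval of a gene at a low level need not hold its FPKM + 1 ratio. Pdcd1, Tigit and Cd274 each have 1 transcript in the GENCODE M21 annotation. With its length, their recovered reads corresponded to a depth of 19.5, 20.8 and 19.6 M fragments in the wild type. In the knockout the depth was 19.1, 20.5 and 19.3 M. Whether the deposited values rest on the same transcript lengths was not checked.

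The identity of the cells was checked against marker lists. Over all measured genes, 5.19% were called lower and 2.71% were called higher. All 5 pan-T and CD4 markers in the table were measured and within 1.5-fold, with a summed level of 2020 FPKM in wild-type cells and 2151 FPKM in knockout cells. Of the 5 Th17 markers, 4 were called lower, and Ccr6 was within 1.5-fold with a ratio above 0, at 3.35 and 4.85 FPKM. The 5 summed to 1563 and 626.5 FPKM, most of it from Il17f at 1056 and 382 FPKM. CD8 T cell and NK cell markers were present although the labels name CD4+ T cells. In knockout cells all 6 measured members of that list were called lower. The list summed to 1672 and 575 FPKM, most of it from Gzma at 1254 and 358 FPKM. None of its 8 genes was listed at 0, and 1 of the 6, Klrb1c, was measured only through the wild-type library. Of 7 regulatory T cell markers, 5 were called higher and none lower. The list summed to 814 and 963 FPKM, most of it from Il2ra, which was within 1.5-fold at 739 and 783 FPKM. Among the 4 markers of neutrophils and mast cells, 2 were called lower and 1 higher, with a median of −0.06. They summed to 73.4 and 34.1 FPKM, but without Ly6g the other 3 summed to 1.81 and 3.80 FPKM, with S100a9 listed at 0 in the wild type. Those 3 were each measured through 1 library only, Cpa3 through the wild type and S100a8 and S100a9 through the knockout. CD8 T cells, NK cells and regulatory T cells are known to make several of the inhibitory receptors. The part of these cells in the results below was not tested.

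Upstream sequence is shown for 4 genes that bracket the range of the results: Tigit and Pdcd1, which had the lowest ratios, Ctla4, which had the highest level and nearly the same value in both libraries, and Cd274, which had the highest ratio. Each line gives the 250 bases before a transcription start annotated for the gene, 5′ to 3′ on the strand of the gene, from RefSeq on GRCm38.p6, and 8 of the 10 genes had such an entry. Capitals mark matches, on either strand, to the NFAT core GGAAA or the T-box core AGGTGT. The windows are chr16:43664185-43664434 on the minus strand for Tigit, chr1:94052554-94052803 on the minus strand for Pdcd1, chr1:60908775-60909024 on the plus strand for Ctla4 and chr19:29367188-29367437 on the plus strand for Cd274. The starts of Pdcd1 and Ctla4 are the outermost ends of these genes. The start used for Tigit lies 941 bases and that for Cd274 lies 5331 bases inside the gene as RefSeq bounds it, so those windows precede an internal start.
Tigit: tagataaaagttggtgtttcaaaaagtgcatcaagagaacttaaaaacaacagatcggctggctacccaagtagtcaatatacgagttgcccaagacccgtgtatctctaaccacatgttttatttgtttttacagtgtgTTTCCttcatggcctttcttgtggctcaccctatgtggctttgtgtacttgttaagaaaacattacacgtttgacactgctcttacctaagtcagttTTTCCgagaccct
Pdcd1: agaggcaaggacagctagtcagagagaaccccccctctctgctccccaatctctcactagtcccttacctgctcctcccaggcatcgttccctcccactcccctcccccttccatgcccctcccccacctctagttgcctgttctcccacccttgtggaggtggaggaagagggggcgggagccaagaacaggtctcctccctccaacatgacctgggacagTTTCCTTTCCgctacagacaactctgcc
Ctla4: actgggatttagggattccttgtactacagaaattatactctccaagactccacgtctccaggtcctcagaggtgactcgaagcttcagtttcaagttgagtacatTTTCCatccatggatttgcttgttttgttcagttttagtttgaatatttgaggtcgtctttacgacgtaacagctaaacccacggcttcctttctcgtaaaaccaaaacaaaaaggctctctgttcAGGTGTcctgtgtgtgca
Cd274: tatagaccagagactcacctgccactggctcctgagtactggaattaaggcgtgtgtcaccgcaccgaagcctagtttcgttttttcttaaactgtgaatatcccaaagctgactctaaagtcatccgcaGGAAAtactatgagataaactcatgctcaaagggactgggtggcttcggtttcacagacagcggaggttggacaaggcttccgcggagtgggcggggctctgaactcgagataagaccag
NFAT is a calcium-dependent factor of T cell receptor signalling, and its core was found in 5 of the 9 windows of these 8 genes (Cd160 has 2), a share equal to the 55.6% over all promoter windows of this length. Tigit and Pdcd1 each held 2 copies, both on the strand opposite to the gene, with first bases 110 and 13 before the start in Tigit and 28 and 23 before the start in Pdcd1. Ctla4 and Cd274 held 1 copy each. Havcr2, Cd200 and Btla, whose log2 ratios were all below 0, held none, so nothing is read from the number of copies. Ctla4 alone of the 8 genes held the T-box core, 18 bases before the start, a motif in 11.8% of all windows. The Foxo core GTAAACA was in none of these 8 genes' windows and in 3.17% of all windows. The AP-1 motif TGANTCA matched only in Havcr2 and the STAT palindrome TTCNNNGAA only in Cd160, against 6.75% and 7.02% of all windows. Motif matches overlap no other motif in the 4 sequences shown, and a match is a description of letters, not of binding.

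Of the 10 checkpoint genes, 9 were measured, and Cd160 stayed under 1 FPKM in both libraries. Tigit, Pdcd1 and Lag3 were called lower, 6 were within 1.5-fold and none was called higher, beside 5.19% of all measured genes called lower and 2.71% called higher. At a limit of 2-fold Tigit alone was lower and none was higher, beside 1.96% and 1.01% of all measured genes. The median log2 ratio of the 9 measured checkpoint genes was −0.31, beside −0.03 over all measured genes. Tox counts as measured only through the knockout library.

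**Figure D1:**
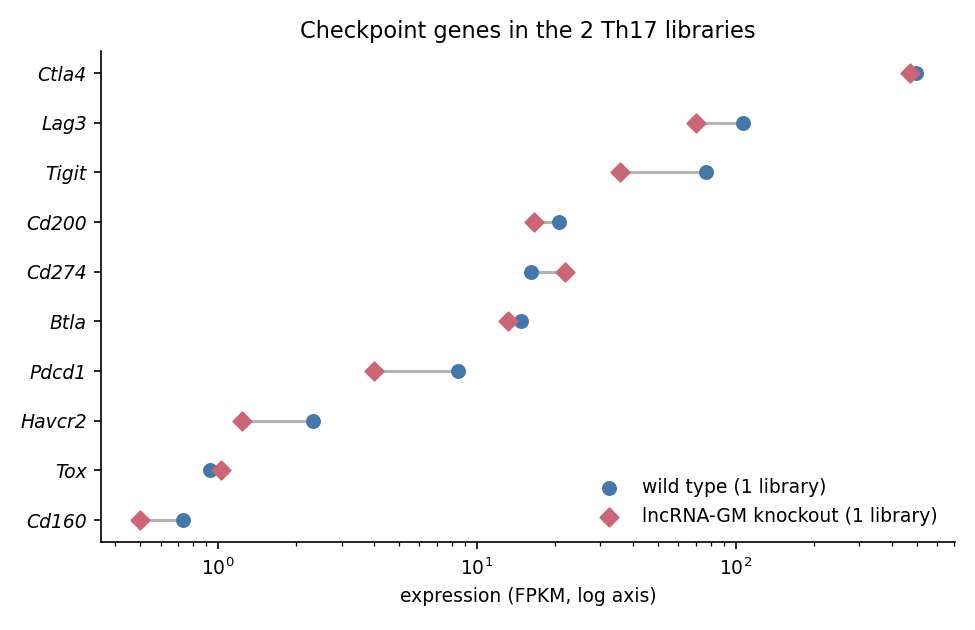
Expression of the 10 checkpoint genes in FPKM on a log axis, ordered by the wild-type level, with circles for the wild-type and diamonds for the knockout library (1 library each, no error bars). Tigit, Pdcd1, Havcr2 and Lag3 have the widest gaps toward the wild type among measured genes, Cd274 has the opposite order, and Ctla4 nearly coincides at 497 and 471.5 FPKM.

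The order of the levels was almost the same in both libraries. Ctla4, Lag3 and Tigit were the 3 most abundant and Pdcd1, Havcr2, Tox and Cd160 the 4 least abundant in each. Cd200 stood above Cd274 in the wild type and below it in the knockout. The 10 genes summed to 746 FPKM in wild-type cells and 636 FPKM in knockout cells, and Ctla4 alone made up 66.7% and 74.2% of those sums. Without Ctla4 the remaining 9 genes summed to 248 and 164 FPKM, a log2 ratio of −0.60 between the sums.

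Tigit encodes a receptor that binds CD155, the product of Pvr, in competition with the activating receptor CD226. Tigit (gene ID 100043314, chromosome 16 from 43626137 to 43665125 on GRCm38.p6) reached 76.96 FPKM in wild-type cells and 35.7 FPKM in knockout cells, or 46.4% of the wild-type value. Its log2 ratio was −1.09, the lowest among the checkpoint genes, and 169 of the 10998 measured genes had a lower one. The read ratio rested on about 1472 and 672 reads and was −1.11 (interval −1.24 to −0.98), so the whole interval lay beyond 1.5-fold. Among genes with a mean of 25 to 100 FPKM, the band that holds Tigit, 2.49% were at least 1.5-fold lower.

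The activating counterpart of TIGIT ran in the opposite direction. Cd226 reached 2.25 FPKM in wild-type cells and 5.84 FPKM in knockout cells, with a log2 ratio of 1.07 and an interval of the read ratio from 1.10 to 1.66. The level of Tigit was 34.2 times that of Cd226 in the wild-type library and 6.11 times in the knockout library, a 5.60-fold fall in that quotient. Cd96, which encodes a further receptor for CD155, was at 12.4 and 9.89 FPKM, within 1.5-fold. Pvr itself was at 15.5 and 15.1 FPKM, with an interval of −0.17 to 0.10 that includes 0. Nectin2, another ligand of this receptor group, was under 1 FPKM in both libraries.

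Pdcd1 encodes PD-1, whose cytoplasmic tail recruits the phosphatase SHP-2. Pdcd1 (gene ID 18566, chromosome 1 from 94038305 to 94052553) reached 8.43 FPKM in wild-type cells and 3.99 FPKM in knockout cells, or 47.3% of the wild-type value. Its log2 ratio was −0.92 on FPKM + 1, and 248 measured genes had a lower one. About 317 and 147 reads gave a read ratio of −1.09 (interval −1.38 to −0.80). With a pseudocount of 5, which shrinks the ratios of genes at this level, the value was −0.58 and no longer past 1.5-fold. The band of 5 to 25 FPKM that holds Pdcd1 had 4.32% of its genes at least 1.5-fold lower.

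Cd274, the gene of the PD-1 ligand PD-L1, was the only measured checkpoint gene besides Tox with a ratio above 0. Cd274 (gene ID 60533, chromosome 19 from 29362107 to 29388095) reached 16.2 FPKM in wild-type cells and 21.8 FPKM in knockout cells. Its log2 ratio of 0.41 was within 1.5-fold, and the interval of the read ratio was 0.32 to 0.54. Relative to Cd274, Pdcd1 went from 0.519 to 0.183. Pdcd1lg2, which encodes the second PD-1 ligand PD-L2, was at 2.81 and 3.24 FPKM, and its interval of −0.09 to 0.49 includes 0. Cd80, whose product binds PD-L1 on the same cell as well as CTLA-4 and CD28, was at 6.15 and 5.77 FPKM.

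PD-L1 is also made by antigen-presenting cells. Of the 8 macrophage and dendritic cell markers, 5 were measured. Of these, 4 were called higher, beside 2.71% of all measured genes, and Cd14 among the 4 was measured only through the knockout library. That list summed to 32.2 FPKM in wild-type cells and 71.5 FPKM in knockout cells. Most of the sum came from Cd74, at 15.4 and 39.4 FPKM, and H2-Ab1, at 10.6 and 21.6 FPKM. Csf1r was under 1 FPKM, at 0.09 and 0.26 FPKM. None of the 8 was listed at 0 in either library. The part of such cells in the Cd274 value was not tested.

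**Figure D2:**
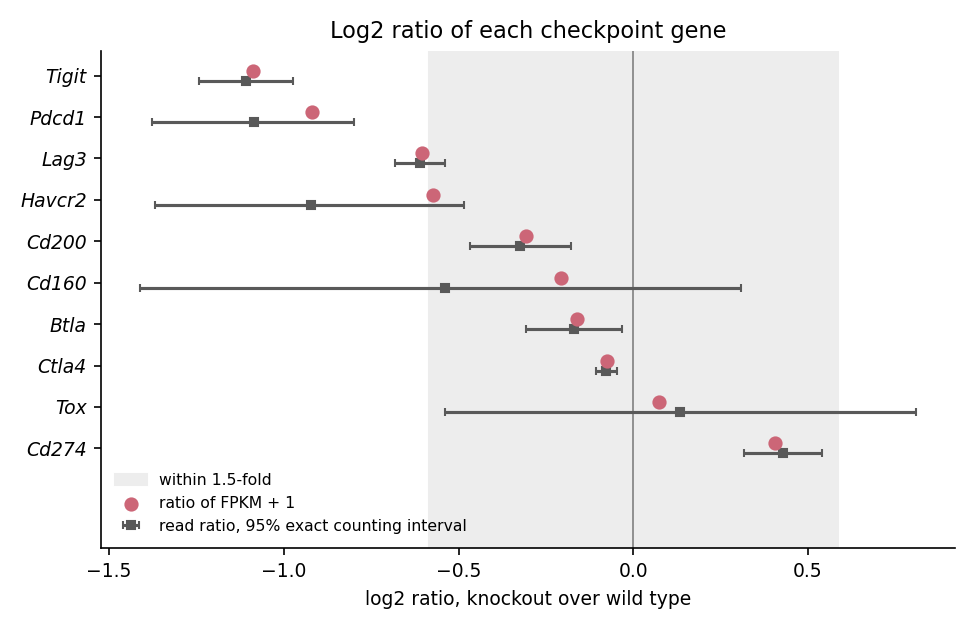
Log2 ratio of each checkpoint gene, knockout over wild type; circles are ratios of FPKM + 1, squares with bars are read ratios with 95% exact counting intervals, and grey marks differences within 1.5-fold. The intervals of Tigit and Pdcd1 lie wholly outside the grey band, those of Lag3 and Havcr2 cross its edge, and those of Cd160 and Tox include 0.

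Lag3 encodes a CD4-related receptor for peptide-loaded MHC class II. Lag3 (gene ID 16768, chromosome 6 from 124904359 to 124912434) reached 107 FPKM in wild-type cells and 70.2 FPKM in knockout cells, the second highest level of the set in both. Its log2 ratio was −0.60, a 1.52-fold difference just past the limit, and 536 measured genes had a lower ratio. About 4148 and 2673 reads gave an interval of −0.68 to −0.54, which includes the 1.5-fold limit. With the knockout scaled so that the median gene had a ratio of 0, the value was −0.57 and no longer past 1.5-fold. Lag3 lay beside the limit in these libraries, unlike Tigit.

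The reported ligands of LAG-3 differed in direction. Lgals3, which encodes galectin-3, reached 135 FPKM in wild-type cells and 57.5 FPKM in knockout cells, a log2 ratio of −1.22 and the lowest among the measured ligand and partner genes. The class II gene H2-Ab1 was at 10.6 and 21.6 FPKM, a ratio of 0.96. H2-Ab1 is itself one of the macrophage and dendritic cell markers whose summed level is given beside Cd274, and the part of such cells in its value was not tested. Fgl1 was listed at 0.11 FPKM in wild-type cells and at 0 in knockout cells. Cd4, the related receptor that also binds class II, was at 174 and 213 FPKM, and the quotient of Lag3 to Cd4 went from 0.614 to 0.330. The sheddases that release LAG-3 from the surface were close to equal, with Adam10 at 21.8 and 21.2 FPKM and Adam17 at 14.1 and 13.0 FPKM.

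Havcr2 encodes TIM-3, a receptor of terminally differentiated Th1 and CD8 T cells. Havcr2 (gene ID 171285, chromosome 11 from 46454931 to 46481255) reached 2.33 FPKM in wild-type cells and 1.24 FPKM in knockout cells. On FPKM + 1 its log2 ratio was −0.57, just inside the 1.5-fold limit. The pseudocount weighs most on such low values, and the read ratio from about 129 and 67 reads was −0.92 (interval −1.37 to −0.49). In the band of 1 to 5 FPKM, 8.56% of genes were at least 1.5-fold lower. Several partners of TIM-3 were far more abundant than Havcr2 and within 1.5-fold. Lgals9 was at 46.7 and 53.3 FPKM and Hmgb1 at 104 and 95.9 FPKM. Bag6, which encodes the adaptor that holds TIM-3 inactive, was at 55.5 and 65.5 FPKM. Ceacam1, a further reported partner, was less abundant than Havcr2, at 0.29 FPKM in wild-type cells and 0.48 FPKM in knockout cells.

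Ctla4 encodes the receptor that outcompetes CD28 for the B7 ligands CD80 and CD86. Ctla4 (gene ID 12477, chromosome 1 from 60909025 to 60915832) reached 497 FPKM in wild-type cells and 471.5 FPKM in knockout cells, above 98.8% and 98.7% of the measured genes in the respective library. Its log2 ratio was −0.08, and about 18661 and 17410 reads gave an interval of −0.11 to −0.05. The interval excludes 0 as far as counting goes, but the value moved to −0.05 once the median gene was set to 0.

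Around CTLA-4, the receptors were within 1.5-fold and 1 ligand was not. Cd28, the costimulatory receptor for the same ligands, was at 87.6 and 72.2 FPKM, a log2 ratio of −0.28 (interval −0.33 to −0.23). The quotient of Ctla4 to Cd28 was 5.68 in the wild type and 6.53 in the knockout. Icos, a further receptor of the CD28 family, was at 155 and 159 FPKM. Cd86 was at 15.7 and 27.3 FPKM, with a log2 ratio of 0.76 and an interval of 0.67 to 0.94, and was the only gene of the ligand and partner list called higher. Like Cd274, Cd86 is a gene of antigen-presenting cells, and the marker levels given for Cd274 apply to it.

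Trafficking sets how much CTLA-4 reaches the surface. In the list of 14 genes for trafficking and shedding of CTLA-4, LAG-3 and PD-1, 13 were measured, 12 were within 1.5-fold and the median was 0.03. None was called lower and 1 was called higher, beside 5.19% and 2.71% of all measured genes. The gene called higher was Trat1, which encodes the adaptor TRIM reported to promote surface CTLA-4. Trat1 was at 1.25 FPKM in wild-type cells and 4.71 FPKM in knockout cells, so a minimum of 5 FPKM left no gene of this list called higher. Its log2 ratio was 1.34, from about 23 and 86 reads, with an interval of 1.25 to 2.66. Lrba, which protects CTLA-4 from lysosomal degradation, was at 10.55 and 10.56 FPKM, and Def6, its partner in CTLA-4 recycling, was at 86.5 and 89.2 FPKM.

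Btla and Cd160 encode receptors that share the ligand HVEM, the product of Tnfrsf14. Btla (gene ID 208154, chromosome 16 from 45223705 to 45252895) reached 14.8 FPKM in wild-type cells and 13.2 FPKM in knockout cells, a log2 ratio of −0.16 with an interval of −0.31 to −0.03. Tnfrsf14 was at 21.1 and 18.4 FPKM, a ratio of −0.19. The quotient of Btla to Tnfrsf14 was 0.702 and 0.716, so receptor and ligand kept nearly the same proportion. Cd160 (gene ID 54215, chromosome 3 from 96798763 to 96829351) was at 0.73 and 0.50 FPKM. About 31 and 21 reads left an interval of −1.41 to 0.31, so no difference was detectable at this depth. Exons of Cd160 share 68 bases with Pdzk1 on the opposite strand, which was at 0.04 FPKM in both libraries.

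Cd200 encodes a ligand that delivers an inhibitory signal to myeloid cells through CD200R. Cd200 (gene ID 17470, chromosome 16 from 45382111 to 45409060) reached 20.8 FPKM in wild-type cells and 16.6 FPKM in knockout cells, with a log2 ratio of −0.31 and an interval of −0.47 to −0.18. It lies on the same chromosome as Btla and Tigit. Its receptor gene Cd200r1 was at 1.77 and 2.21 FPKM, and the interval of −0.21 to 0.83 includes 0.

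Tox encodes a DNA-binding factor that sustains checkpoint expression in exhausted T cells. Tox (gene ID 252838, chromosome 4 from 6686353 to 6991557) reached 0.93 FPKM in wild-type cells and 1.03 FPKM in knockout cells, near the bottom of the measured genes. About 38 and 41 reads left an interval of −0.54 to 0.81, so a difference was not detectable. Exons of Tox share 260 bases with the antisense gene Gm11802, and Cd274 shares 511 bases with an antisense gene, so without known strandedness reads cannot be assigned between them. Of the related genes, Tox2 was at 6.83 and 8.89 FPKM with an interval of 0.14 to 0.63, Tox4 was at 27.7 and 30.4 FPKM, and Tox3 was under 1 FPKM. Tox4 and Tox2 were thus the more abundant members of the family in both libraries.

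**Figure D3:**
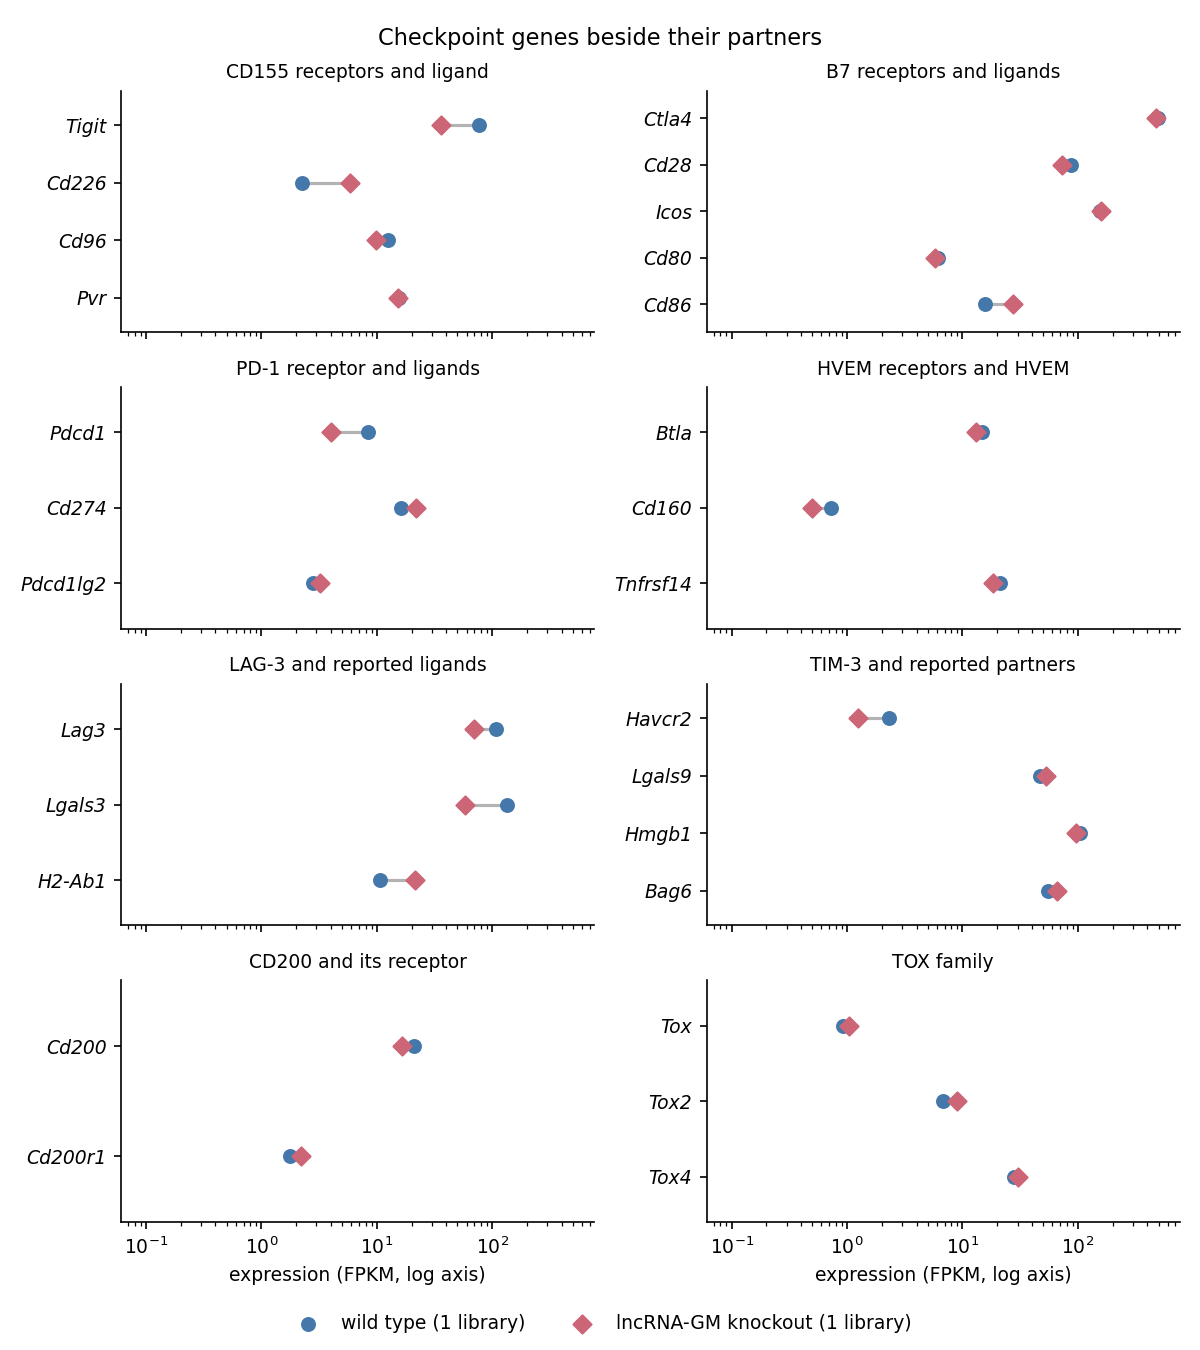
Expression in FPKM on a shared log axis of checkpoint genes and their ligands, co-receptors or family members, with circles for the wild-type and diamonds for the knockout library (1 library each). Tigit and Cd226 move toward each other, while Pvr, Cd80, Icos, Tnfrsf14 and Hmgb1 nearly coincide.

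**Figure D4:**
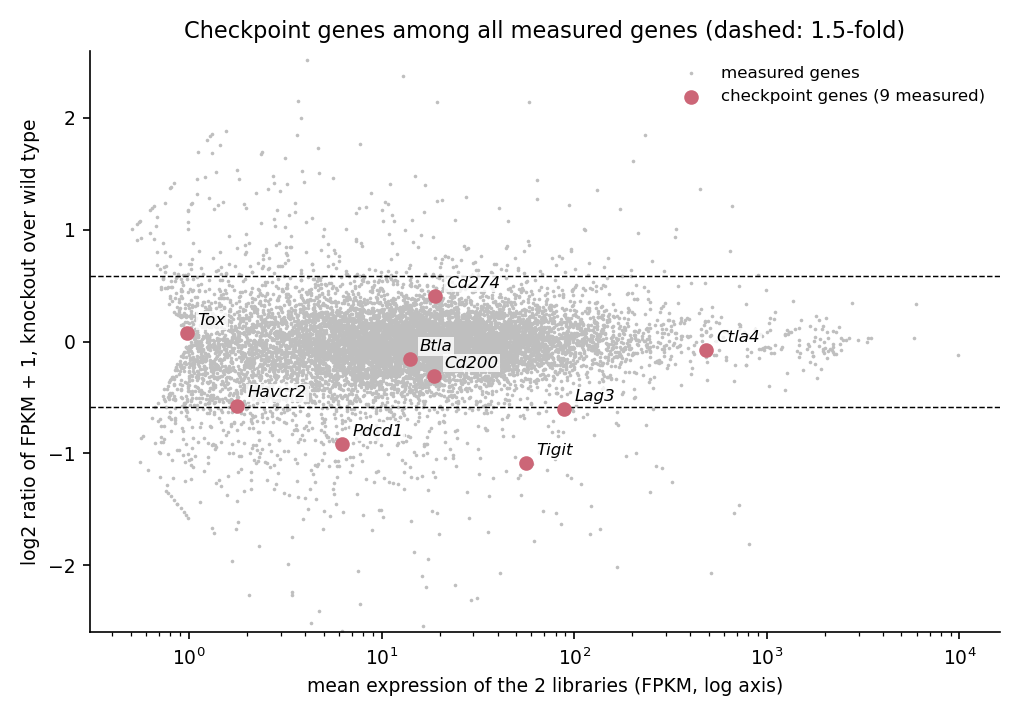
Log2 ratio of FPKM + 1 against mean FPKM (log axis) for the measured genes in grey and the 9 measured checkpoint genes in colour; dashed lines mark 1.5-fold, and 23 measured genes lie beyond the plotted range of 2.6 in either direction. Tigit, Pdcd1 and Lag3 lie below the lower line, and Havcr2 lies just above it.

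The wider pathway was described with 6 further lists, of which 88 genes were measured, 9 of them at least 1.5-fold lower and 9 at least 1.5-fold higher, beside 5.19% and 2.71% of all measured genes. The lists were chosen with results known, so nothing is read from that difference. Among checkpoint ligands and partner receptors, 2 of 10 measured genes were lower, 1 was higher and the median was −0.06. Beside Lgals3 the lower gene was Fgl2, which encodes an inhibitory fibrinogen-like protein, at 8.19 and 4.98 FPKM. Among other inhibitory receptors of T cells, 2 of 11 were lower, 1 was higher and the median was −0.13. The lower genes were Cd300a, at 3.63 and 1.64 FPKM, and Pecam1, at 26.7 and 17.2 FPKM, both of which encode receptors with inhibitory cytoplasmic motifs. Siglecg, an inhibitory lectin receptor best known from B cells, was called higher at 0.35 and 1.14 FPKM, on about 12 and 37 reads. It was measured only through the knockout library, and with a pseudocount of 5, a minimum of 5 FPKM or a fold limit of 2 no gene of that list was called higher. The 4 B cell markers summed to 4.31 FPKM in wild-type cells and 7.37 FPKM in knockout cells. Of these, 3 were measured, 1 was at least 1.5-fold higher and none was listed at 0, and their part in the Siglecg value was not tested.

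Among the 6 related lists, costimulatory receptors had the most genes called higher. Of 12 measured genes, 5 were at least 1.5-fold higher, beside 2.71% of all measured genes, none was called lower and the median was 0.27. Slamf1, which encodes a self-binding receptor of activated T cells, was at 24.4 and 56.9 FPKM and had the highest ratio at 1.19, followed by Cd226. Cd28 and Icos, the family members nearest to CTLA-4, were not among the 5.

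Of 24 phosphatase, kinase and adaptor genes that act below the receptors, 23 were within 1.5-fold and the median was 0.05. None was called lower and 1 was called higher, beside 5.19% and 2.71% of all measured genes. Ptpn6, which encodes SHP-1, was at 56.4 and 57.2 FPKM, and Ptpn11, which encodes SHP-2, was at 17.4 and 16.2 FPKM. Inpp5d, which encodes the lipid phosphatase SHIP-1, was at 38.4 and 48.2 FPKM. The gene past the limit was Sla2, which encodes an adaptor that limits T cell receptor signalling, at 8.84 and 24.9 FPKM with a ratio of 1.40 and an interval of 1.32 to 1.68. Dok2, which encodes an adaptor that attenuates receptor signalling, was at 35.4 and 53.1 FPKM, a ratio of 0.57 just inside the limit, and the number called higher was 2 with the knockout scaled to a median of 0 and with the deposited log2 ratio. Dok2 was named after its values were seen.

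Of 18 measured transcription factor genes tied to checkpoint expression, 5 were at least 1.5-fold lower, beside 5.19% of all measured genes, none was called higher and the median was −0.17. Of those 5, Nr4a2, Bcl6 and Prdm1 had a mean of 1 to 5 FPKM, a band in which 8.56% of genes were called lower. The number called lower was 2 with a pseudocount of 5 and 2 with a minimum of 5 FPKM, and 8 of the 18 genes had ratios above 0. Nr4a2, an orphan nuclear receptor induced by T cell receptor signals, had the lowest ratio at −1.31, at 4.37 and 1.16 FPKM, whereas its relatives Nr4a1 and Nr4a3 had ratios of 0.22 and 0.49. Bcl6, the follicular helper factor, was at 3.30 and 1.33 FPKM. Prdm1, which encodes Blimp-1, was at 3.65 and 1.82 FPKM, while Maf, its reported partner in driving co-inhibitory receptor genes, was at 83.9 and 118 FPKM. Tbx21, which encodes T-bet, was at 9.34 and 5.14 FPKM, and Nfatc1 was at 20.7 and 18.3 FPKM. Id2, the most abundant of the 5 called lower, was at 142 and 90.2 FPKM, with an interval of −0.73 to −0.58. Id2 was named after its values were seen.

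**Figure D5:**
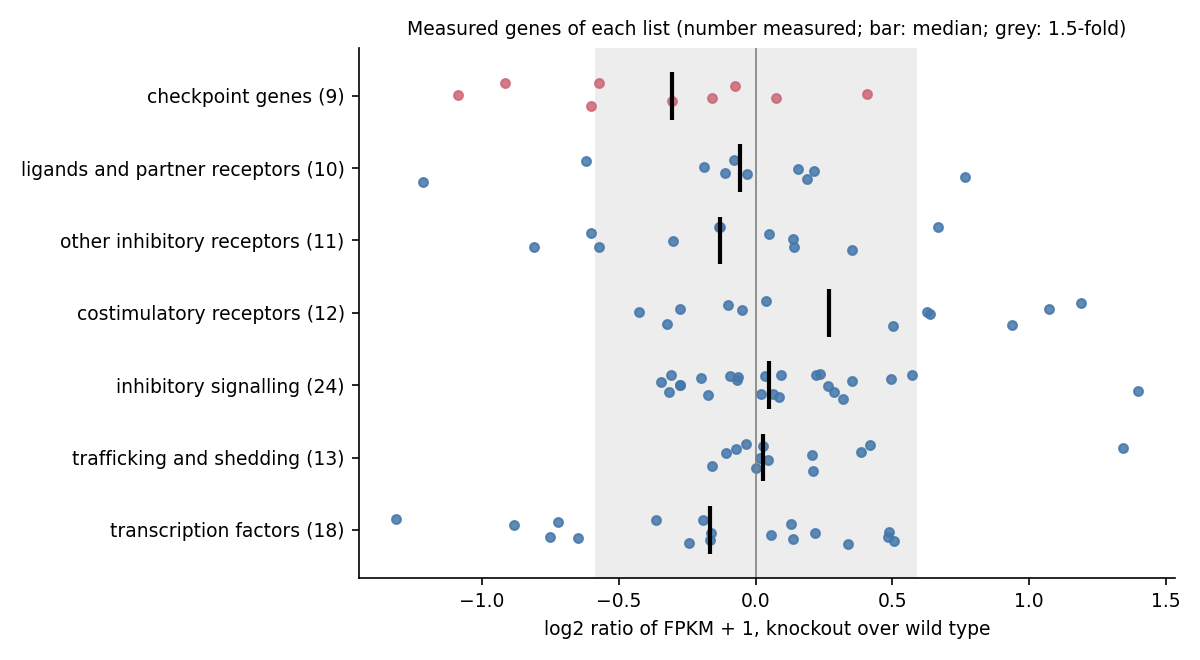
Log2 ratio of the knockout to the wild-type library, each as FPKM + 1, for the measured genes of the checkpoint set and 6 related lists; each point is a gene, its vertical position within a row carries no value, black bars are list medians and grey marks differences within 1.5-fold. The checkpoint genes have a median of −0.31 and the costimulatory receptors one of 0.27, and inhibitory signalling has 1 gene beyond the band.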

How the data were processed

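The authors deposited 1 table with 2 expression columns, 1 per library, read here as FPKM values because their sums, 517664 in the wild type and 514343 in the knockout, differ from each other and from the total that TPM has by definition. Bowtie2 and RSEM with GRCm38.p6 are named without versions, per the submitters' processing notes. No source used here gives filters, strandedness or read pairing. The deposited log2 ratio has no pseudocount and served as an alternative. The deposited p-value, from a test not named in the sources used here, was read as a Poisson comparison of 2 libraries. The share of reads in the wild type, 50.4%, was chosen so that genes listed at 0 in 1 library came closest to whole reads. With that share, 28 of the same 29 genes gave whole reads within 0.05. Because the share was fitted to these genes, that count is no independent check of it. That formula was solved for the reads of each named gene where rounding of the FPKM values allowed. The deposited FDR is above 1 in 443 rows, so it was taken as a score of the authors and left unused.

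The checkpoint genes and the lists were chosen with earlier results of these data known. Named genes were all 10 checkpoint genes, their direct partners and regulators, and, per list, at most 2 genes with the highest and 2 with the lowest ratio past 1.5-fold, failing which its 2 most abundant genes. No likeness of pattern was computed over 2 libraries. Symbols changed to dates by a spreadsheet (24) were restored by gene ID from the RefSeq table, which holds 16878 of the 17002 IDs. Of 18 names in the list of other inhibitory receptors, 15 were matched, and Trac was not matched. Coordinates came from RefSeq, and transcripts and exon overlaps from GENCODE M21, both on GRCm38. A search with BLAST 2.17.0 for transcripts of other genes with at least 95% identity over 50% of a transcript found none for the 10 genes. The calls and the read recovery were run on simulated Poisson counts, with changes larger than 1.5-fold and p-values made by the same formula. That run checks the code and cannot show that the deposited p-values follow the formula. Values were computed in Python 3.11.15 with pandas 2.3.3, numpy 2.4.6 and scipy 1.17.1, and plotted in matplotlib 3.10.9.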

Additional observations from a re-analysis of the deposited data

How the results depend on the processing

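The number of checkpoint genes at least 1.5-fold lower was 3, and it was 1 (Tigit) with a pseudocount of 5 and 1 (Tigit) with a fold limit of 2. It was 4, with Havcr2 added, under a pseudocount of 0.1, the deposited log2 ratio and the recovered reads, the last chosen after seeing the data, and 2 with the knockout scaled to a median of 0. No checkpoint gene was called higher in any of the 8 alternatives. The log2 ratio ran from −1.11 to −1.01 for Tigit, from −1.09 to −0.58 for Pdcd1, from −0.61 to −0.57 for Lag3 and from −0.92 to −0.23 for Havcr2 over 6 settings, and no called ratio changed sign. Over the 6 further lists, the 9 lower genes became 3 with a pseudocount of 5, 5 with a minimum of 5 FPKM and 2 with a fold limit of 2, and the 9 higher genes became 4 with a fold limit of 2. Per list and direction, 65 of these counts stayed within 1.5 times and 19 did not. No paired analysis was possible because each genotype has 1 library. Depth limits Cd160 and Tox, whose intervals include 0. Spread between cultures could not be estimated.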
